A study of Danio rerio with 12 samples.

Results

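The protocadherins described here are the 74 genes of the 25680 in the deposited tables whose symbol begins with pcdh, in lower or upper case. Of these, 48 carry symbols that begin with pcdh1 or pcdh2 followed by a letter and are called clustered by symbol, and 26 are called other. The symbols and the positions of the genes did not fully match. By position, 55 members lay in 2 dense arrays (at least 5 members with gaps under 200 kb), and 19 lay outside them. The genes pcdh1a and pcdh1b are clustered by symbol alone, because both have PCDH1 as their human ortholog and stood outside both arrays. The 7 genes named PCDHGC3 (1 of many), together with PCDHA5 and pcdhb, are other by symbol but lay within the arrays.

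Protocadherins are the largest group of cadherin adhesion molecules, and most are best known from the nervous system. Genes of the clustered alpha and gamma families each join a variable exon, which encodes the ectodomain, to constant exons shared by the family. In mammalian neurons the promoters of many, not all, of these variable exons are chosen at random, under the influence of CTCF and DNA methylation. The resulting mixtures of proteins bind only like mixtures on other membranes. The nonclustered delta protocadherins (pcdh1, pcdh7, pcdh9 and pcdh11 in the delta-1 group, pcdh8, pcdh10, pcdh17, pcdh18 and pcdh19 in the delta-2 group) are weaker adhesion molecules that act in cell sorting, migration and axon growth.

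RNA was sequenced from 12 zebrafish libraries to compare animals lacking tet2 and tet3 function with controls; both genes encode dioxygenases that oxidise 5-methylcytosine. Double mutants (DM) carried inactivating mutations in tet2 and tet3. Siblings were pools of wild type animals with animals heterozygous for a tet2 or tet3 mutation or for both, so the genotype of a sibling library is mixed. Every library is labelled with strain background AB, while the growth protocol describes wild-type crosses of AB with TU. There were 3 sibling and 3 DM libraries of whole embryos, taken 25 hours after fertilisation (25 hpf). Manually dissected hearts at 48 hpf made up 2 wild type (WT), 2 sibling and 2 DM libraries, whose labels carry the numbers 1 and 3. Only the heart RNA went through an amplification step, so tissue, stage and amplification cannot be told apart. No label ties the libraries of a group to different clutches, so the spread behind each p-value may be technical and is only that of these samples.

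Total counts ranged from 8341467 to 16700992 in embryos and from 3289161 to 5963478 in hearts. Levels are given as CPM, the count of a gene scaled to the total of its library, which also depends on transcript length, so levels are compared between libraries, and a share of counts held by a gene is not a share of molecules. A gene with no count could still stand at up to 0.180 to 0.360 CPM (3 counts, counting error only) in embryos, depending on the library, and 0.503 to 0.912 CPM in hearts. Transcripts of tet2 and tet3 were counted in every library, DM included (tet2 at 77.7 to 152 CPM in embryos and 139 to 351 CPM in hearts; tet3 at 35.01 to 94.96 and 68.5 to 119 CPM), and such counts do not show whether the protein is active. The 8 cardiomyocyte markers summed to 14090 to 50420 CPM in hearts and 410.9 to 475.0 CPM in embryos, so the labelled tissue carried its defining transcripts. Heart libraries also held neuron and eye transcripts in unequal amounts: the 11 neuron markers summed to 538.9 CPM in WT 1 and 4173 CPM in WT 3, and the 7 lens and retina markers to 2075 CPM in sibling 1 and 917.6 CPM in DM 1 against 17.2 to 44.1 CPM in the other 4 hearts.

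The first array lay on chromosome 10 (21565262 to 21862679, GRCz10 per the submitters' notes) and held 22 members: 3 of the alpha type, 18 of the gamma type and 1 PCDHGC3 gene. The second lay on chromosome 14 (1976550 to 2451498) and held 33 members: 14 alpha, 12 gamma and 7 PCDHGC3 or pcdhb genes. The gene intervals of 47 members overlapped that of another member, as is usual for genes with shared constant exons. On chromosome 10, 12 intervals shared an end, and on chromosome 14, 10 shared a start at 1976663. How reads in such exons were assigned is not given in the sources used here, so the division of counts between members of an array is uncertain. The library kit does not mark strand, so a read from the opposite strand cannot be told apart either.

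A single member held much of the counted signal of each gamma family in embryos. On chromosome 14, 4 gamma members had 10 or more counts over the embryo libraries. Of their counts, pcdh2g5 (1976550 to 2166806) took 96.9%, 97.4% and 97.0% in siblings 1, 2 and 3 and 96.2%, 93.6% and 96.2% in DM 1, 2 and 3. Its interval began 113 bases beyond the start shared by 10 other members, so it is listed with sequence beyond theirs. The part of that sequence in its counts was not tested.

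On chromosome 10, pcdh1g32 (21850116 to 21862676) was the member of the array with the start nearest to the shared end. It took 54.3%, 46.6% and 52.2% of the gamma counts of that array in siblings and 44.8%, 32.3% and 39.5% in DM embryos. The sibling and DM shares did not overlap, and neither did those of pcdh2g5 on chromosome 14. Both genes were picked after their values were seen, and the embryo shares of other members are not compared here. With 3 libraries against 3 an exact permutation test cannot go below 0.10, and none was run. In hearts no member held so large a share on chromosome 10: pcdh1g29, with the largest mean share of these counts, took 8.70% (WT 1), 18.3% (WT 3), 11.6% (sibling 1), 10.3% (sibling 3), 9.99% (DM 1) and 9.68% (DM 3). The share of pcdh2g5 on chromosome 14, among the 10 gamma members with 10 or more heart counts, ran from 49.5% to 81.3% over the 6 hearts.

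**Figure D1:**
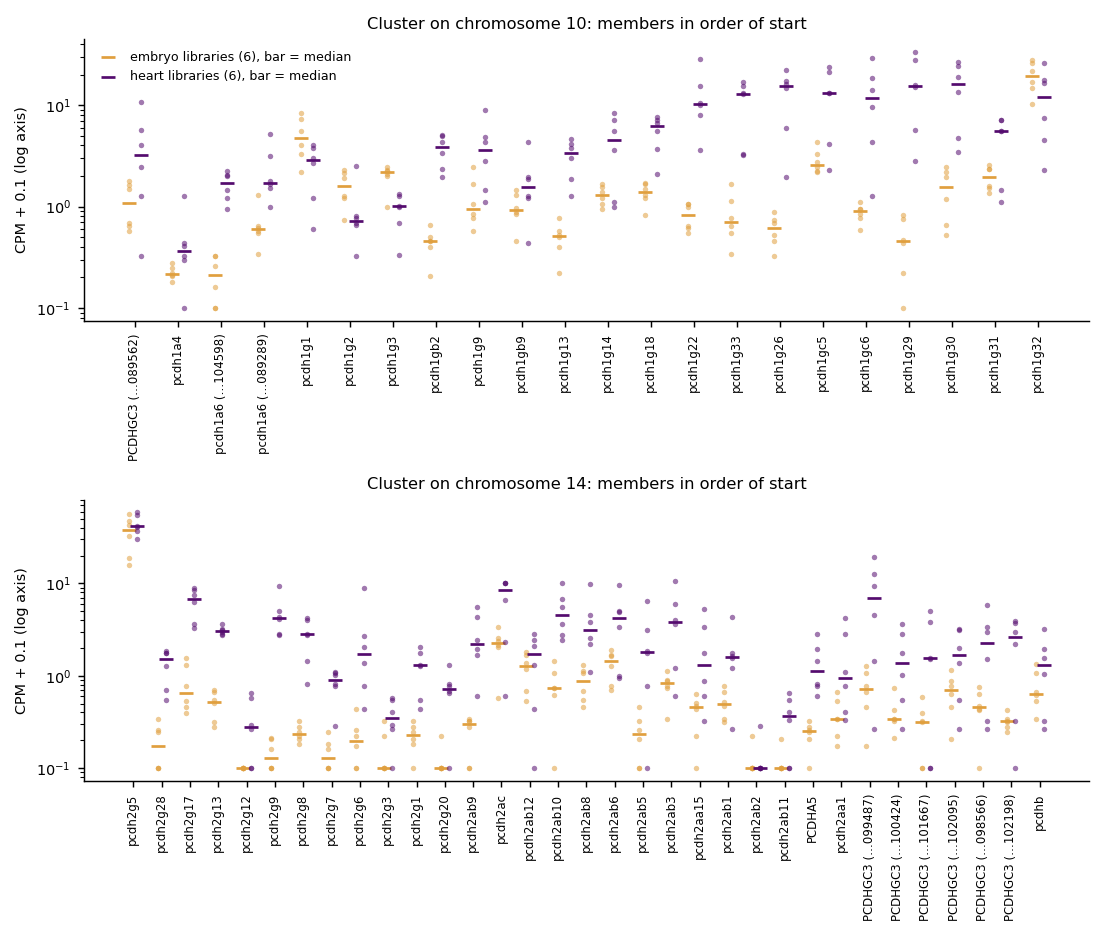
CPM plus 0.1 (log axis) of every member of the chromosome 10 array (upper) and the chromosome 14 array (lower), ordered by start, with a point per library and a bar at the median of the 6 embryo libraries (orange) and the 6 heart libraries (purple). For pcdh1g22, pcdh1g29 and pcdh2g9, picked after their values were seen, every heart point lies above every embryo point. These members had too few embryo counts to be tested there, so their points are a description only. Of all genes tested in both tissues, 43.2% did not overlap between them. For pcdh2g5 and pcdh1g32 the points of the tissues overlap. Heights are not scaled to transcript length.

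With 10 or more counts over the tissue, 62 members were kept in embryos (36 clustered by symbol, 26 other) and 70 in hearts (44 and 26). Of the 12 below that minimum in embryos, pcdh2g12 had no count in any embryo library. The filter for testing passed 35 members in embryos (17 clustered by symbol, 18 other) and 58 in hearts (34 and 24). All 19 members outside the arrays were tested in both tissues, so the untested members are array genes with low counts.

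In whole embryos the question was whether protocadherin transcripts changed when tet2 and tet3 were inactivated. Without a term for replicate number, edgeR's quasi-likelihood test with Benjamini-Hochberg adjustment (false discovery rate of 0.05) called 0 of 35 members. The same test called 0 of all 17831 genes (0.0%). An unadjusted p under 0.05 was held by 1 of the 35 members and by 585 of the 17831 genes. With limma-voom 0 members were called, and DESeq2 called 0 members and 36 of 24066 genes (0.15%). Equally numbered sibling and DM embryo libraries deviated alike in pairs 1 and 2 (correlations of 0.847 and 0.672) and less so in pair 3 (0.270). Sibling 2 with DM 3 reached 0.512, and no label states a pairing. A fit with the replicate number as a block called 7 of 35 members against 13.8% of all genes. Higher in DM were 2 members, against 4.37% of all genes, and lower were 5, against 9.39%. The results named below as rises or falls come from that blocked fit.

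The delta-1 genes held the most changed member in each direction. The gene pcdh7a (ENSDARG00000078898, chromosome 1, 14451752 to 14516704), by its symbol a zebrafish copy of PCDH7, was counted at 4.73, 3.40 and 6.30 CPM in siblings 1, 2 and 3 and at 2.65, 1.44 and 2.57 CPM in DM 1, 2 and 3. Every DM library was below every sibling library. The log2 fold change (DM over sibling) was -1.02 (SE 0.24, adjusted p = 0.00867 with the block; adjusted p = 0.722 without it). Its paralog pcdh7b stood at 26.6 to 38.1 CPM over the 6 libraries, with a log2 fold change of -0.09 (SE 0.15).

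A pair of genes on chromosome 14 carry the symbol pcdh11, and both were higher in DM in every pair of equally numbered libraries. The first (ENSDARG00000098652, 26975638 to 26999424) was counted at 4.67, 1.70 and 2.70 CPM for siblings, against 9.24, 3.12 and 4.39 CPM for DM, and rose by a log2 fold change of 0.93 (SE 0.22, adjusted p = 0.00872 with the block). The groups overlapped, because sibling 1 was above DM 2 and DM 3. The second (ENSDARG00000105441, 26697009 to 26823749) stood at 1.20, 0.666 and 0.675 CPM for siblings, against 2.65, 0.839 and 1.29 CPM for DM, and did not pass (0.95, SE 0.37, adjusted p = 0.0782).

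The delta-1 gene pcdh1a (ENSDARG00000062720, chromosome 10, 20959780 to 21096678) fell by 0.71 on the log2 scale (SE 0.22, adjusted p = 0.0331 with the block). Its levels were 9.22, 4.88 and 6.64 CPM for siblings, against 7.48, 2.16 and 2.89 CPM for DM, with DM 1 above 2 of the siblings. The paralog pcdh1b, at 42.0 to 70.2 CPM, had a log2 fold change of -0.15 (SE 0.15, adjusted p = 0.521). For pcdh9 the levels stood at 6.23, 3.25 and 6.53 CPM for siblings, against 5.87, 1.32 and 2.04 CPM for DM, just short of the threshold (-0.75, SE 0.26, adjusted p = 0.0535).

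Among the delta-2 genes 1 member passed. The gene pcdh18b (ENSDARG00000052494, chromosome 14, 41805003 to 41812535) was counted at 33.5, 20.4 and 37.0 CPM for siblings, against 27.3, 15.0 and 18.1 CPM for DM, a fall of 0.51 on the log2 scale (SE 0.16, adjusted p = 0.0321 with the block). DM 1 stayed above sibling 2, so the groups overlapped. Its paralog pcdh18a, which acts in cell movement in the zebrafish gastrula, showed the same order of libraries (44.6, 30.2 and 45.7 CPM in siblings; 41.7, 23.5 and 24.8 CPM in DM) and did not pass (-0.37, SE 0.16, adjusted p = 0.104).

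The gene pcdh19, a delta-2 member whose human ortholog is mutated in an epilepsy that mainly affects females, stood at 97.8, 59.6 and 86.8 CPM for siblings, against 86.2, 46.3 and 40.7 CPM for DM. The lowest sibling was below the highest DM library, and the change did not pass (-0.47, SE 0.16, adjusted p = 0.0554). The paralogs pcdh10a (5.36 to 12.6 CPM) and pcdh10b (11.4 to 26.5 CPM) had log2 fold changes of -0.47 (adjusted p = 0.0845) and -0.42 (adjusted p = 0.0802). For pcdh17 (5.75 to 14.8 CPM) and pcdh8 (6.53 to 16.7 CPM), the latter known in fish for its part in somite formation, the values were -0.13 (adjusted p = 0.614) and 0.26 (adjusted p = 0.325).

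The remaining genes outside the arrays did not pass. For pcdh20 (ENSDARG00000101910, chromosome 14, 14262874 to 14267478) the levels stood at 10.8, 7.92 and 12.16 CPM for siblings, against 12.22, 13.4 and 14.9 CPM for DM. All DM libraries were above all siblings, by a narrow margin, with a log2 fold change of 0.47 (SE 0.17, adjusted p = 0.0632). The separate gene PCDH20 (chromosome 11, 42622179 to 42626846) stood at 2.57 to 4.02 CPM with a log2 fold change of 0.03. Of all 35 members tested, pcdh20 alone was higher in DM without overlap (3.02% of all genes were) and pcdh7a alone was lower (2.97% of all genes).

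The endothelial member pcdh12 had 21.7, 14.4 and 23.5 CPM for siblings, against 20.8, 13.1 and 13.3 CPM for DM (-0.26, SE 0.16, adjusted p = 0.257). The 7 endothelial markers summed to 200.6 to 234.7 CPM in siblings and 139.9 to 190.7 CPM in DM, and their part in the pcdh12 values was not tested. The hair cell tip link genes pcdh15a and pcdh15b stood at 5.77 to 10.8 and 1.56 to 3.59 CPM over the 6 libraries, with log2 fold changes of 0.18 (adjusted p = 0.537) and -0.19 (adjusted p = 0.641).

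Among array members, pcdh2g5 (ENSDARG00000098788) and pcdh1g32 (ENSDARG00000100829) fell and pcdh1g1 (ENSDARG00000104007) rose. The levels of pcdh2g5 were 56.5, 32.8 and 47.2 CPM for siblings, against 42.3, 15.7 and 19.0 CPM for DM. DM 2 and DM 3 lay below every sibling, and DM 1 lay between siblings 2 and 3. The log2 fold change was -0.84 (SE 0.16, adjusted p = 0.00207 with the block and 0.722 without it). Its interval overlaps those of other gamma members of the array. How reads in shared exons were assigned is not given, and their part in this value was not tested.

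For pcdh1g32 the levels stood at 25.9, 16.6 and 27.8 CPM for siblings, against 21.7, 10.2 and 14.7 CPM for DM, a log2 fold change of -0.54 (SE 0.16, adjusted p = 0.0271 with the block). The gene pcdh1g1 (chromosome 10, 21693447 to 21862676), at the other end of the same gamma family, had 2.10, 3.92 and 5.40 CPM for siblings, against 3.22, 7.19 and 8.36 CPM for DM, a log2 fold change of 0.79 (SE 0.21, adjusted p = 0.0167 with the block). Both overlapped between groups and moved 1 way in all 3 pairs. These 2 genes are among the 12 of the array that share an interval end. How reads at that end were assigned is not given, and its part in either value was not tested.

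**Figure D2:**
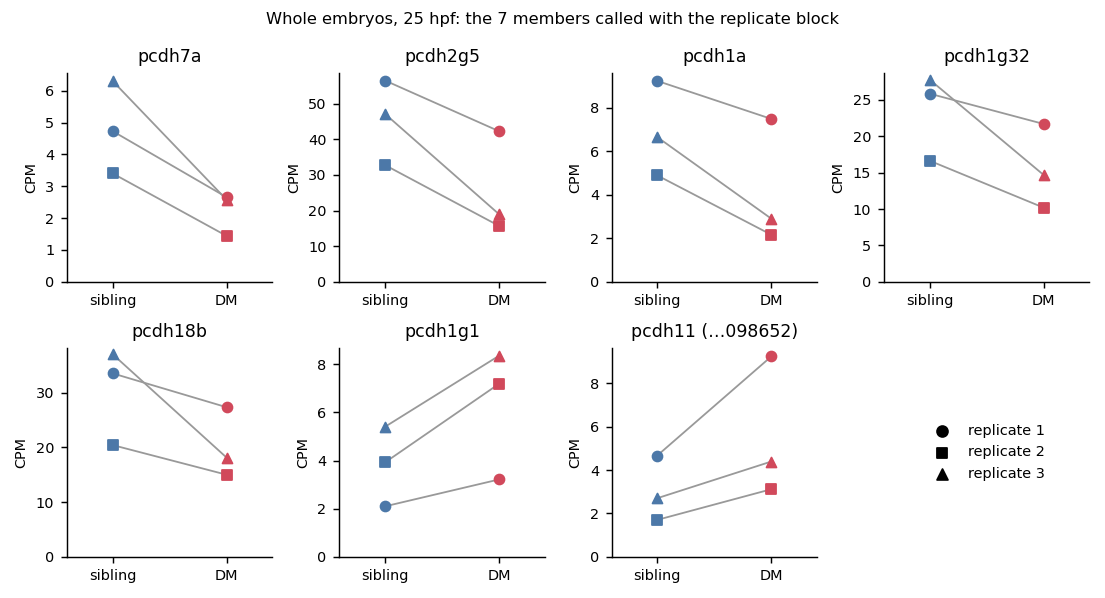
CPM in sibling and DM embryos for the 7 members called with the replicate block; lines join equally numbered libraries, and symbols mark replicates 1, 2 and 3. Every line runs down for pcdh7a, pcdh2g5, pcdh1a, pcdh1g32 and pcdh18b and up for pcdh1g1 and the first pcdh11 gene, while only pcdh7a has DM points wholly below the sibling points.

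Counted by position in place of symbol, the 7 calls fell on 3 of 16 array members and 4 of 19 members outside the arrays, beside 13.8% of all genes. The median log2 fold change of the tested members in the blocked fit was -0.13, beside 0.02 over all genes. Leaving out a pair moved the calls of the members and those of all genes in the same order: 2 of 29 members were called without pair 1 (3.07% of all genes), 3 of 41 without pair 2 (6.83%) and 8 of 41 without pair 3 (17.1%). The gene pcdh2g5 was the 1 member called in all 3 of these fits, which share libraries. How many of all genes were called in all 3 was not counted. Without pair 1 the calls were pcdh2g5 and pcdh9, without pair 2 they were pcdh2g5, pcdh7a and the first pcdh11 gene, and without pair 3 pcdh19 and pcdh20 joined 6 of the 7. When each library was also corrected for a smooth trend with genomic span, 8 members were called against 13.0% of all genes. Of these, 6 were among the 7, pcdh1a was lost, and pcdh18a (-0.48, adjusted p = 0.0372) and the second pcdh11 gene (1.18, adjusted p = 0.0355) were gained.

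**Figure D3:**
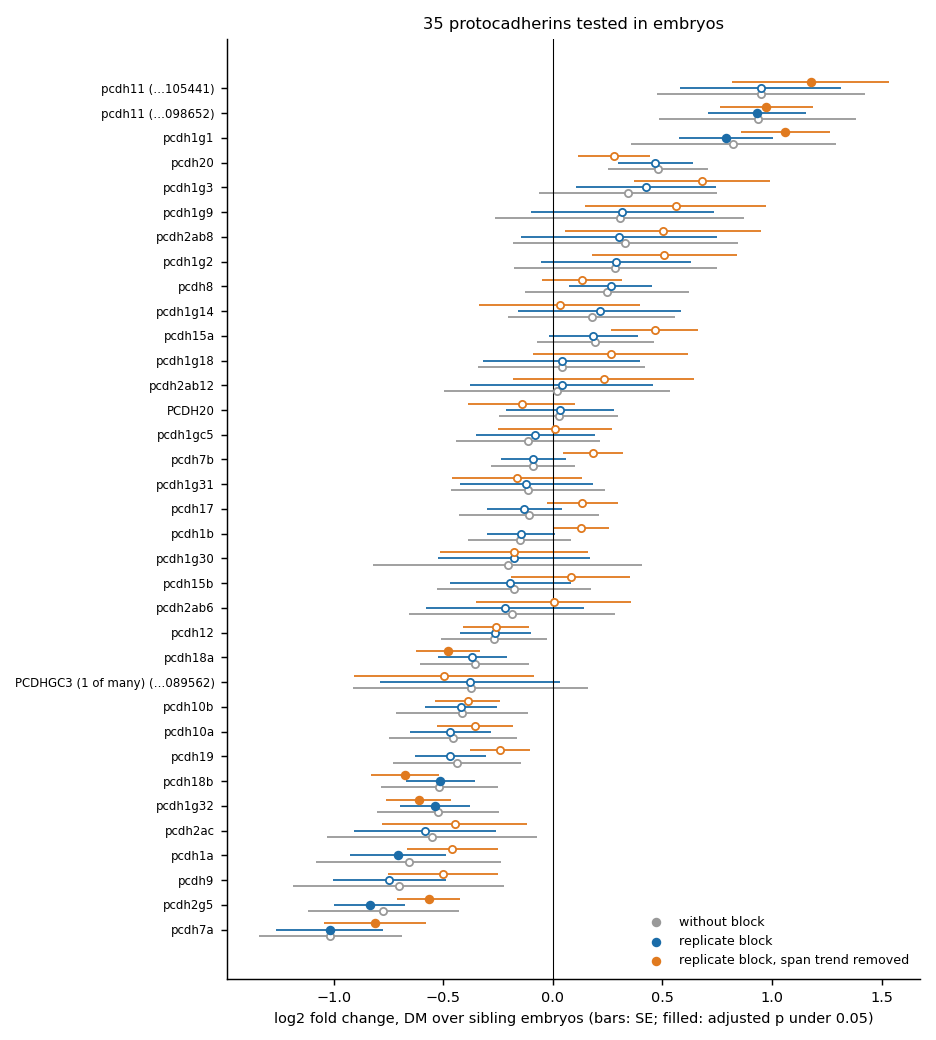
Log2 fold changes (DM over sibling) of the 35 members tested in embryos with their SE, from edgeR without the block (grey), with the replicate block (blue) and with the block and the span trend removed (orange); filled points have an adjusted p under 0.05. The estimates without and with the block nearly coincide and differ mainly in their SE, and with the span trend removed the median of the 35 moves from -0.13 to 0.01.

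As a sum, members of both classes were lower in DM embryos within each pair. The clustered members (by symbol) summed to 196.8, 124.4 and 181.6 CPM for siblings, against 175.4, 98.8 and 108.9 CPM for DM, and the log2 ratios within pairs 1, 2 and 3 were -0.17, -0.33 and -0.74. The other members summed to 354.8, 224.5 and 328.8 CPM for siblings, against 323.0, 200.9 and 204.9 CPM for DM, with log2 ratios of -0.14, -0.16 and -0.68. Of each clustered sum, 34.6% to 45.4% came from pcdh1b, which lies outside both arrays. The array members alone (by position) summed to 122.8, 79.2 and 117.4 CPM for siblings, against 108.9, 53.7 and 67.95 CPM for DM. Both classes overlapped between groups, and the group means (168 ± 38.2 against 128 ± 41.6 CPM clustered, 303 ± 69.0 against 243 ± 69.3 CPM other; mean ± SD, n = 3) differed by about the spread of the libraries or less.

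Of 35 members, 15 were lower in DM in all 3 pairs and 4 were higher in all 3, beside 32.6% and 23.3% of all genes. Neither these counts nor the sums were corrected for the trend with genomic span. With that trend removed in the blocked fit, the median log2 fold change of the 35 was 0.01, with 19 above 0 and 16 below. The neuron markers had the same order of libraries as the sums, at 800.7, 480.6 and 794.1 CPM for siblings, against 748.2, 364.4 and 387.8 CPM for DM. The 7 neural progenitor markers summed to 633.4 to 786.0 CPM in siblings and 481.3 to 723.0 CPM in DM. A lower sum in DM within every pair was not particular to neural markers. It also held for the lens and retina, the endothelium, and the notochord and somite markers. Skin markers summed higher in DM in every pair, and cardiomyocyte, hair cell and blood markers went both ways. In the blocked fit 2 of the 11 neuron markers fell and none rose, beside 9.39% of all genes lower and 4.37% higher. Also lower were 6 of 6 lens and retina, 3 of 7 endothelial, 2 of 6 notochord and somite and 1 of 7 neural progenitor markers. Of 8 cardiomyocyte markers 3 rose and 1 fell, and no hair cell, skin or blood marker was called. No neuron marker was at 0 in any library. The part of these cell types in the protocadherin values was not tested. In bulk samples fewer cells of a type and less RNA per cell cannot be told apart.

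**Figure D4:**
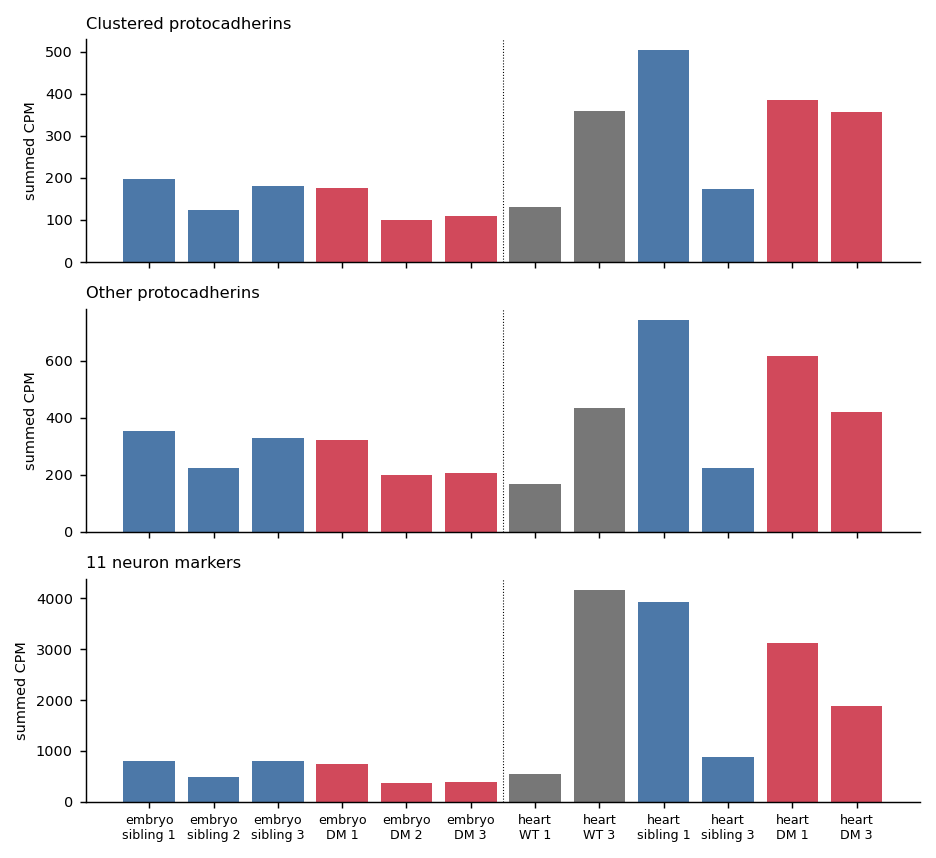
Summed CPM in each of the 12 libraries for clustered protocadherins, other protocadherins (both by symbol) and the 11 neuron markers; grey bars are WT, blue bars sibling and red bars DM, and the dotted line divides embryos from hearts. Hearts WT 1 and sibling 3 are low and the other 4 hearts are high in all 3 panels, and in embryos sibling 2, DM 2 and DM 3 are the lowest 3.

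In hearts the protocadherin sums of the 2 WT libraries, and of the 2 sibling libraries, were farther apart than the means of any groups were. The clustered sums of the 2 DM hearts lay close together, between those of the 2 siblings. Clustered members summed to 130.8 and 359.8 CPM in WT 1 and 3, to 503.8 and 173.7 CPM in siblings 1 and 3, and to 384.3 and 357.2 CPM in DM 1 and 3. The array members alone summed to 112.0 and 337.3 CPM (WT), 429.9 and 127.5 CPM (sibling) and 301.0 and 294.3 CPM (DM). Other members summed to 169.2 and 433.5 CPM (WT), 744.0 and 224.5 CPM (sibling) and 617.1 and 419.4 CPM (DM). WT 1 was the lowest of the 6 hearts for 41 of 58 members, beside 31.0% of all genes, and sibling 1 the highest for 28, beside 23.9%.

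The neuron markers were at 538.9 and 872.7 CPM in the hearts with the lowest protocadherin sums, WT 1 and sibling 3, and at 1884 to 4173 CPM in the other 4. The neural progenitor markers summed to 82.3 and 107.1 CPM in those hearts and to 387.1 to 1038 CPM in the others. The part of these cells in the heart values was not tested. By array, the chromosome 10 gamma members ranged over the 6 hearts from 30.9 CPM in WT 1 to 240.5 CPM in sibling 1, and the chromosome 14 alpha members from 8.22 CPM in WT 1 to 71.8 CPM in sibling 1. The chromosome 14 gamma members ranged only from 53.4 to 80.1 CPM, with pcdh2g5 as their largest part.

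No protocadherin passed the edgeR, limma-voom or DESeq2 test in any heart comparison. For DM against sibling, edgeR called 0 of 58 members and 0 of 16998 genes (0.0%). Its unadjusted p was under 0.05 for 2 members and for 568 of the 16998 genes. With limma-voom 0 members were called, and DESeq2 called 0 members and 62 of 16415 genes (0.378%). For DM against WT, edgeR called 0 members and 0 genes (0.0%), with 0 members and 1254 of the 16998 genes under an unadjusted 0.05. There limma-voom called 0 members, and DESeq2 called 0 members and 118 of 15039 genes (0.785%). For sibling against WT, edgeR called 0 members and 0 genes (0.0%), with 3 members and 833 of the 16998 genes under an unadjusted 0.05. Here limma-voom called 0 members, and DESeq2 called 0 members and 52 of 14581 genes (0.357%). These comparisons share libraries with each other.

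The smallest p for DM against sibling hearts belonged to pcdh10a (ENSDARG00000099729, chromosome 1, 12076661 to 12110610), a delta-2 gene known for its part in axon growth and cell migration. It was counted at 33.9 and 41.7 CPM (WT), 23.7 and 15.4 CPM (sibling) and 70.4 and 58.2 CPM (DM). The 3 groups did not overlap, with siblings lowest and DM highest. Without overlap, 15.8% of all genes were higher in DM than in sibling hearts, 32.9% higher in DM than in WT and 7.35% lower in sibling than in WT. The 3 blood markers also summed lowest in siblings, at 70.2 and 124.3 CPM, against 217.5 and 226.9 CPM (WT) and 193.4 and 254.8 CPM (DM). The 8 cardiomyocyte markers summed to 14090 and 33170 CPM (sibling), 48000 and 30840 CPM (WT) and 38220 and 50420 CPM (DM). The 11 neuron markers summed to 3925 and 872.7 CPM (sibling), 538.9 and 4173 CPM (WT) and 3114 and 1884 CPM (DM). The part of these cells in the pcdh10a values was not tested. For pcdh10a the log2 fold change of DM over sibling was 1.70 (SE 0.39, adjusted p = 0.9999 in edgeR), and DESeq2 gave an adjusted p of 0.0521. Leaving out hearts sibling 1 and DM 1, in which lens transcripts were high, left 1 sibling and 1 DM heart and gave 1.91. In the authors' deposited table pcdh10a was called for this comparison (log2 fold change 1.41, adjusted p = 0.0202). It was the 1 called of 27 protocadherins with an adjusted p there, beside 103 of 12840 genes with an adjusted p (0.802%). For DM over WT the log2 fold change was 0.47 (SE 0.37) and for sibling over WT -1.23 (SE 0.38, adjusted p = 0.913 in edgeR).

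The other delta-2 gene with an unadjusted p under 0.05, pcdh18b, had 39.6 and 31.8 CPM (WT), 157.8 and 62.5 CPM (sibling) and 39.9 and 48.0 CPM (DM). Both siblings were above the other 4 hearts. The log2 fold change was -1.32 for DM over sibling (SE 0.49, adjusted p = 0.9999) and 1.33 for sibling over WT (SE 0.49, adjusted p = 0.913) by edgeR. Without sibling 1 alone the values were -0.57 and 0.56. Without both sibling 1 and DM 1, which left 1 sibling and 1 DM heart, they were -0.38 and 0.57.

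Counts for PCDH20 were low, at 2.35 and 3.88 CPM (WT), 0.912 and 0.446 CPM (sibling) and 1.84 and 2.59 CPM (DM). Siblings were below both other groups but rested on 3 and 2 counts, so no fold is given (sibling against WT, adjusted p = 0.913 in edgeR). For pcdh20 the levels stood at 0.168 and 0.388 CPM (WT), 5.17 and 0.446 CPM (sibling) and 1.84 and 2.36 CPM (DM), so both WT hearts and sibling 3 were under the level that 3 counts allow, and sibling 1 stood highest.

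The members pcdh2g5 and pcdh12 were lowest in heart WT 3, and the part of neurons in their levels was not tested. The levels of pcdh2g5 were 55.3 and 30.3 CPM (WT), 42.3 and 37.1 CPM (sibling) and 41.0 and 58.6 CPM (DM), and all 3 groups overlapped. The endothelial gene pcdh12 had 12.4 and 5.63 CPM (WT), 11.2 and 12.9 CPM (sibling) and 15.6 and 21.9 CPM (DM), with DM above the rest (0.62 over sibling, SE 0.54; 0.75 over WT, SE 0.54; neither passed). The value over WT was 0.28 without WT 3, 0.41 without DM 3 and 1.48 without WT 1. The 7 endothelial markers summed to 2470 and 1385 CPM (WT), 949.5 and 1725 CPM (sibling) and 1003 and 1480 CPM (DM).

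The next 3 members were lowest in hearts WT 1 and sibling 3. The levels of pcdh19 were 15.8 and 74.1 CPM (WT), 118.6 and 39.5 CPM (sibling) and 93.4 and 109 CPM (DM). The first pcdh11 gene had 7.21 and 61.3 CPM (WT), 80.6 and 15.8 CPM (sibling) and 81.5 and 20.0 CPM (DM), so each group held a low and a high library. For pcdh1g29, a gamma member of the chromosome 10 array, the levels stood at 2.68 and 33.2 CPM (WT), 27.97 and 5.58 CPM (sibling) and 15.1 and 15.5 CPM (DM).

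**Figure D5:**
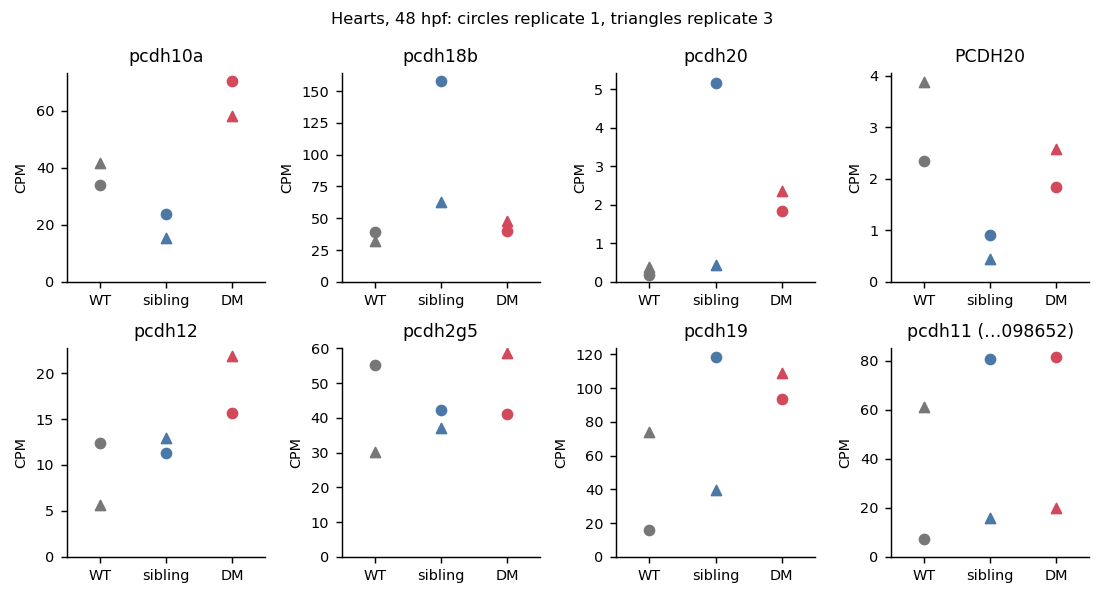
CPM of 8 members in WT (grey), sibling (blue) and DM (red) hearts, with circles for replicate 1 and triangles for replicate 3. The 3 groups are apart for pcdh10a (15.4 to 23.7 CPM in siblings, 33.9 to 41.7 in WT, 58.2 to 70.4 in DM), while the points of a group spread widely for pcdh19 and the first pcdh11 gene. Of all genes, 15.8% were higher in DM than in sibling hearts without overlap, 32.9% higher in DM than in WT and 7.35% lower in sibling than in WT.

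Counts of members whose groups did not overlap were at or below those of all genes. For DM against sibling hearts, 8 of 58 members were higher without overlap and 1 was lower, beside 15.8% and 15.0% of all genes. For DM against WT hearts, 15 were higher and 0 lower, beside 32.9% and 8.99%. For sibling against WT hearts, 4 were higher and 3 lower, beside 27.5% and 7.35%.

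The difference of the DM effect between hearts and embryos (DM over sibling in each) was tested as an interaction. By edgeR 0 members and 9 of 19689 genes (0.0457%) passed. An unadjusted p under 0.05 was held by 1161 of the 19689 genes and by 1 of 66 members. That member was pcdh10a, with a difference of 2.13 on the log2 scale (hearts minus embryos, SE 0.49, adjusted p = 0.321). DESeq2 called it as the 1 protocadherin (2.08, SE 0.53, adjusted p = 0.0272), among 87 of 18867 genes (0.461%). In embryos its levels had been 12.6, 8.21 and 11.7 CPM for siblings, against 11.2, 5.99 and 5.36 CPM for DM. The next by p in edgeR were PCDH20 (adjusted p = 0.845), with few counts in sibling hearts, and pcdh2g5 (1.07, SE 0.57, adjusted p = 0.890).

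Between tissues, 4 of the 33 members tested in both did not overlap between the 6 hearts and the 6 embryo libraries, beside 43.2% of all genes. Of the members tested in both tissues, pcdh10a (5.36 to 12.6 CPM in embryos, 15.4 to 70.4 CPM in hearts), pcdh1g18 (0.719 to 1.61 and 2.01 to 7.60 CPM) and pcdh1g30 (0.429 to 2.33 and 3.35 to 26.8 CPM) were higher in hearts. The 1 lower in hearts was pcdh20 (7.92 to 14.9 CPM in embryos, 0.168 to 5.17 CPM in hearts). The filter left out array members with few embryo counts, so this count says nothing of them. Levels of 4 of those, given as a description with no test, were 0.450 to 0.965 CPM in embryos and 3.52 to 28.3 CPM in hearts for pcdh1g22, 0 to 0.723 and 2.68 to 33.2 CPM for pcdh1g29, 0 to 0.113 and 2.68 to 9.32 CPM for pcdh2g9, and 0.180 to 0.599 and 2.68 to 3.53 CPM for pcdh2g13. They were picked after their values were seen, and several of their embryo values lay at or under the level that 3 counts allow, so no fold is given. The 11 neuron markers summed to 364.4 to 800.7 CPM in embryos and 538.9 to 4173 CPM in hearts. For pcdh1g18, pcdh1g22, pcdh1g29 and pcdh1g30 the lowest hearts were WT 1 and sibling 3, where those markers were lowest. That was not so for pcdh10a, pcdh20, pcdh2g9 and pcdh2g13. The part of neurons in these levels was not tested.

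Genes that act beside protocadherins were counted in the same fits, where none passed without the block in any comparison. Over all genes, the blocked embryo fit called 9.39% lower in DM and 4.37% higher. In the blocked embryo fit, 7 of 11 tested genes of the giant cadherin and planar polarity group (Fat, Dachsous, Fjx and Celsr) were lower in DM and none higher, with a median log2 fold change of -0.67; celsr2 (-1.02, adjusted p = 0.00041), dchs1b (-0.98, adjusted p = 0.00278) and celsr3 (-1.01, adjusted p = 0.00646) had the smallest p. Of 11 classical cadherins 1 was lower, the neural cadherin gene cdh2 (-0.77, adjusted p = 0.00598), and the median was -0.23. Of 11 genes of the WAVE complex, an actin regulator that binds tails of delta protocadherins, 5 were lower (wasf3b -0.76, abi1b -0.83 and cyfip2 -0.54 among them), with a median of -0.47.

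Of 20 genes for CTCF, cohesin and DNA methylation factors, 9 were lower and none higher, with a median of -0.44; dnmt1 (-0.92, adjusted p = 0.00208), uhrf1 (-0.80, adjusted p = 0.00468) and the cohesin loader gene nipblb (-0.72, adjusted p = 0.00727) led them. Of 7 kinase genes tied to clustered protocadherin tails 3 were lower (ptk2aa -0.65, fynb -0.61, ptk2ab -0.51), with a median of -0.03. Of 4 tested tip link partners of pcdh15, 1 was lower, the motor gene myo7aa (-0.69, adjusted p = 0.0178), and the median was -0.07. The median over all genes was 0.02 and 13.8% of them were called, 9.39% lower and 4.37% higher. The span trend was kept in this fit, and no test compared the lists with each other or with the protocadherins. In hearts none of these genes passed in any comparison, with or without the block.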

How the data were processed

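Whole embryos (25 hpf) and dissected hearts (48 hpf) were profiled by RNA-seq. The authors deposited raw counts per gene and library, which were used for every level and test. They also deposited, for each comparison, a log2 fold change with a p-value and an adjusted p-value, which are quoted only where the authors' deposited table is named. Per the submitters' processing notes, STAR 2.3.0e, HTSeq 0.6.0 and GRCz10 were used, with no role given for any. Coordinates come from the deposited tables.

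CPM was taken from the raw totals over all 25680 genes. Tests were fitted on all genes with edgeR 4.0.16 (R 4.3.3), using TMM, filterByExpr and its quasi-likelihood test, and Benjamini-Hochberg adjustment at 0.05 over all genes tested. The 6 embryo libraries formed a fit, the 6 hearts another with a shared spread, and the interaction used the 10 sibling and DM libraries. SEs were derived from the estimate and its F statistic. The methods were tested on simulated data.

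In embryos, deviations from the group mean correlated across genes between libraries with the same number (0.847, 0.672 and 0.270 for pairs 1, 2 and 3, each over 0.1), although no label states a pairing and sibling 2 with DM 3 reached 0.512. The replicate number therefore also entered as a block. Alternatives were DESeq2 1.42.0, limma-voom (limma 3.58.1), DESeq2 size factors, other filters on low counts, a trend with genomic span removed (lowess, span 0.3), members clustered by position, and libraries left out. The members, gene lists, markers and alternatives were chosen with earlier results of these data known.

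Named members were all those not clustered by symbol with 10 or more counts over the tissue, the 8 clustered members with the highest mean CPM per tissue, those called, and otherwise the 5 with the smallest p; those not written out are given as counts and ranges. The genes pcdh1g18, pcdh1g22, pcdh2g9 and pcdh2g13 and the shares of pcdh2g5, pcdh1g32 and pcdh1g29 were picked out after their values were seen. The reference held no genome sequence, and no sequences were used here.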

Additional observations from a re-analysis of the deposited data

Results flagged for a closer look

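The DM effect on pcdh10a differed between hearts and embryos by a test of the difference itself in DESeq2 (2.08 on the log2 scale, adjusted p = 0.0272), while edgeR did not call it (2.13, adjusted p = 0.321). It was higher in both DM hearts than in both sibling hearts, as were 15.8% of all genes. It was lower in DM embryos in all 3 pairs, as were 32.6% of all genes. In hearts its log2 fold change by edgeR was 0.47 for DM over WT (SE 0.37) and -1.23 for sibling over WT (SE 0.38). The heart difference between DM and sibling thus included siblings below WT.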

How the results depend on the processing

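Over all genes, the embryo fits without the block called 0, except 36 of 24066 with DESeq2 and 2 of 17898 without sibling 2. In embryos the count of protocadherins called was 0 in edgeR without the block and 0 with DESeq2, limma-voom, DESeq2 size factors, either other filter, the span trend removed alone or any single library left out. It was 7 with the replicate block and 8 with the block and the span trend removed, and 2, 3 and 8 without pair 1, 2 or 3 in the blocked fit, where the share of all genes called moved likewise (3.07%, 6.83% and 17.1%; members called ran from 0 to 8 over all fits without libraries). The heart counts stayed at 0 under every alternative run, the block included, with a range of 0 to 0 without a library. Over all genes the edgeR and limma-voom heart fits also called 0, with 1 exception. Without a filter on low counts, 3 of 23751 genes were called for DM against sibling and 3 for DM against WT. These heart counts of 0 are therefore not particular to the protocadherins. Numbers crossed for WT against sibling hearts (equal numbers had a correlation of -0.282), an alternative added after seeing the data, called 0 members and 0 genes. The interaction gave 1 with DESeq2 (pcdh10a) and 0 under the other alternatives. Without 1 library at a time, the log2 ratios of summed CPM in hearts ran from -0.44 to 1.09 (clustered) and -0.52 to 1.21 (other) for DM over sibling, from 0.043 to 1.503 and 0.26 to 1.62 for DM over WT, and from -0.50 to 1.37 and -0.42 to 1.52 for sibling over WT; the highest values came without sibling 1 for DM over sibling and without WT 3 for DM over WT, and the lowest for sibling over WT came without sibling 1. In embryos they ran from -0.69 to -0.24 (clustered) and -0.58 to -0.19 (other). Other scaling, class rules and minimum counts moved these ratios by less than the spread of the libraries, although TMM-scaled CPM lowered that of DM over WT hearts from 0.60 to 0.32 (clustered). The class rule by position moved the sums themselves by more, from 168 to 106.5 CPM (clustered, sibling embryos) and from 371 to 298 CPM (clustered, DM hearts). The members not overlapping between tissues numbered 4 among those tested in both and 22 with a minimum count over the 12 libraries together, added after seeing the data; 18 of the 22 were not tested in embryos and could pass that minimum through the hearts, where they were high, so the larger count supports nothing. In the blocked embryo fit, leaving out a pair moved pcdh1a (-1.07 without pair 1) and pcdh18b (-0.34 without pair 3) by over 1.5 times and the other 5 called members by less. Without the block and 1 library, pcdh1a ran from -1.32 (without DM 1) to -0.39 (without DM 2), pcdh2g5 from -1.25 (without DM 1) to -0.55 (without DM 2), pcdh1g32 from -0.77 (without DM 1) to -0.33 (without DM 2), pcdh1g1 from 0.50 (without sibling 1) to 1.19 (without DM 1) and the first pcdh11 gene from 0.43 (without DM 1) to 1.41 (without sibling 1). In all, 18 of 27 values of named members moved by over 1.5 times without some library, and pcdh2g9 reversed for DM over WT hearts without WT 3 (0.066; range -1.66 to 0.066). The interaction of pcdh2g5 fell to 0.64 without heart DM 3. With 2 hearts per group at 3289161 to 5963478 counts, single members with a few counts could not be resolved.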
